A study of Mus musculus with 27 samples.

Results

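The comparison set bone marrow-derived macrophages that lack GRIP1 against wild-type macrophages, with vehicle as the only treatment in both. It rests on 7 of the 27 libraries of the series, 4 from knockout and 3 from wild-type cultures, chosen by their labels. Marrow came from male mice 8 to 10 weeks old and was grown for 5 days in medium with 20% serum and 10% conditioned medium of L cells, which supplies the macrophage growth factor CSF1. The knockout mice were LysM-Cre+/+ and GRIP1fl/fl. The genotype label of the wild-type mice reads C57BL/6, LysM-Cre+/+ and GRIP1wt/wt, so that Cre would be shared by both groups, whereas the titles and the series text name these animals BL6. Cre is driven by the Lyz2 (LysM) locus, which is active in macrophages and neutrophils, so other cells in a culture would keep an intact Ncoa2 gene. The other 20 libraries of both genotypes had been treated for 24 h, with IL4 (10 ng/ml) or with one of the glucocorticoids corticosterone (500 nM) and dexamethasone (100 nM). Whether each library had its own animal is not in the labels, and the spread behind each p-value may therefore be technical.

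GRIP1, the product of Ncoa2, is a coregulator of the p160 family, which binds nuclear receptors that carry their hormone and brings histone-modifying enzymes to their target genes. In macrophages it is known as a partner of the glucocorticoid receptor, both where that receptor activates genes and where it represses inflammatory ones, and of KLF4, a transcription factor of the IL4 response. A macrophage culture from marrow can also hold stromal cells and remnants of the neutrophil lineage, whose transcripts are then counted with those of macrophages.

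Levels are given as CPM, counts scaled to the size of the library, in libraries 1, 2 and 3 of wild type and 1, 2, 3 and 4 of knockout, in this order, and a difference is the fitted log2 fold change of knockout against wild type with its standard error (SE). Ncoa2 (GRCm38 chromosome 1, 13139105 to 13374083, minus strand) was at 55.7, 71.4 and 72.0 CPM in wild type and 19.0, 16.1, 16.6 and 22.2 CPM in knockout. Its difference was −1.85 ± 0.15, adjusted p = 9.52e-09 by edgeR's quasi-likelihood test, and every knockout library lay below every wild-type library. A transcript without the floxed part is still counted over the rest of the gene. The other p160 genes did not pass the test, at 0.04 for Ncoa1 (adjusted p = 0.854) and 0.14 for Ncoa3 (adjusted p = 0.454). Of 20 tested coactivators and partner coregulators, Ncoa4 rose (0.47) and Ncoa2 fell, 10.0% of the list beside 18.8% of all tested genes. With the marker scores described below as covariates, Ncoa4 was at 0.05 (adjusted p = 0.894). Nr3c1, the glucocorticoid receptor, was at −0.07 (adjusted p = 0.72), and at −0.45 (adjusted p = 0.0379) with the same covariates. Lyz2, the locus that carries Cre, was at 49.7, 36.3 and 30.9 CPM in wild type and 40.5, 25.1, 33.1 and 34.3 CPM in knockout, with overlapping groups and no call.

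The 7 libraries held 24745146 to 48023102 counts in genes, and 14589 of 29872 genes had enough counts for the test. The macrophage receptors Csf1r and Adgre1 (F4/80) were abundant in all 7 libraries, at 1917 to 2380 CPM for Csf1r and 1987 to 2478 CPM for Adgre1, and neither passed the test. With the marker scores as covariates, Csf1r was called lower in knockout (−0.51, adjusted p = 0.0048). Between genotypes 2738 genes were called at an adjusted p under 0.05, which is 18.8% of those tested. Of these, 1236 were higher in knockout (8.47% of tested genes) and 1502 were lower (10.3%). At least 2-fold changes were mostly falls, with 925 lower against 198 higher. The median difference over all tested genes was 0.0174. The groups did not overlap in 25.9% of tested genes and in 90.9% of called genes. Without wild-type library 1 the number called was 1809, and without knockout libraries 2 and 3 it was 1521. These libraries stand apart in ways described next.

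Marker scores of stromal cells and neutrophils were far lower in the knockout cultures. The stromal score, the mean log2(CPM + 0.5) of 27 matrix and fibroblast markers, was 5.46, 4.26 and 3.87 in wild type and 2.27, 1.91, 2.01 and 1.60 in knockout. The neutrophil score, over 10 granule and precursor markers, was 5.20, 3.97 and 3.52 in wild type and 1.60, 2.16, 1.71 and 1.79 in knockout. Chil3, which IL4-treated macrophages also make, is a member of this score. Wild-type library 1 was the highest and library 3 the lowest in both scores, with vehicle and with each treatment, and no knockout library of any treatment reached a wild-type one.

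**Figure D1:**
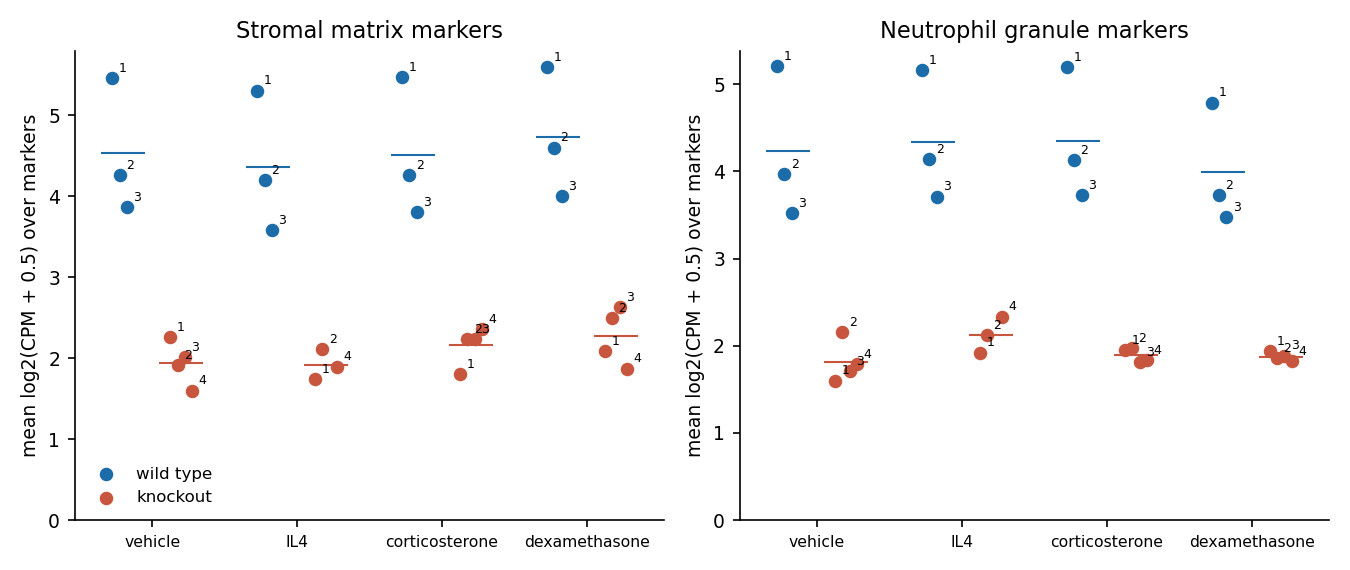
Stromal and neutrophil marker scores in the 27 libraries. Each point is a library with its replicate number, the y axis is the mean log2(CPM + 0.5) over the markers, and lines are group means. With vehicle, wild-type libraries lay between 3.87 and 5.46 for stromal markers and knockout libraries between 1.60 and 2.27.

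Of 28 tested stromal markers 25 fell and none rose (89.3% called, beside 18.8% of all tested genes), with a median difference of −3.32. Col1a1, the main chain of type I collagen, was at 350.2, 119.8 and 94.2 CPM in wild type and 6.20, 7.09, 6.41 and 2.68 CPM in knockout, a difference of −5.07 ± 0.74, adjusted p = 7.08e-05. Wild-type library 1 was the highest by far, and even the lowest wild-type library was far above the knockout libraries. Of 13 contractile genes 12 fell (92.3% called, median −4.54). Among them the smooth muscle actin Acta2 was at 255, 80.0 and 55.3 CPM in wild type and 5.50, 5.37, 4.09 and 1.93 CPM in knockout (−4.97 ± 0.67). Its partner Tagln differed by −5.39 and the calponin Cnn1 had 0 counts in all knockout libraries, at least 68.2-fold lower than in wild type by a floor of 3 counts over the group. Markers of marrow stroma fell in 6 of 10, and 1, Adipoq, rose (70.0% called). In contrast, 1 of 9 endothelial markers fell and 1, Pecam1, rose, so that 22.2% were called, beside 18.8% of all tested genes. The call of Pecam1 was lost without wild-type library 2. At 0 in all knockout libraries were 1 of the 14 contractile markers, Cnn1, and none of the stromal list. So were 2 of the 12 marrow stroma markers, both with too few counts to be tested. The summed level of the stromal list was 1312 to 2578 CPM in wild type and 580 to 799 CPM in knockout. That of the marrow stroma list overlapped, at 1052 to 1771 CPM in wild type and 994 to 1420 CPM in knockout.

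Granule and precursor markers of neutrophils fell in 8 of 16 tested members and rose in 1 (56.2% called, median −2.78). Mature neutrophil markers fell in 9 of 12 (75.0% called, median −2.29). The granule and precursor list summed to 197.3 to 597.3 CPM in wild type and 103.6 to 203.4 CPM in knockout, with an overlap. The mature list summed to 113.7 to 154.5 CPM in wild type and 51.12 to 77.1 CPM in knockout, without an overlap. Lactoferrin, encoded by Ltf, was at 56.6, 21.0 and 12.8 CPM in wild type and 0.310, 0.737, 0.439 and 0.530 CPM in knockout (−5.91 ± 0.69, adjusted p = 3.86e-06). S100a9, a subunit of calprotectin, was at 135, 50.7 and 34.8 CPM in wild type and 2.32, 3.20, 1.24 and 2.59 CPM in knockout (−5.03 ± 0.65). The defining marker Elane had too few counts in any group to be tested, and Mpo, at −1.77, was not called. Ngp differed by −5.37 and Cd177 by −4.93. The stefin Stfa2 had 0 counts in all knockout libraries, at least 24.2-fold below wild type. Mmp8, at 0.60, rose against the rest of the list, a call lost without library 2 of either group or wild-type library 3. Monocyte and progenitor markers fell in 6 of 12 and rose in 1 (58.3% called). Cd34, a surface protein of progenitors, rose from 8.53, 9.87 and 11.8 CPM to 25.0, 34.2, 40.7 and 29.8 CPM. Dendritic cell markers fell in 1 of 5 (Ccr7, −2.95), and these 20.0% are near the 18.8% of all tested genes called. Mast cell, basophil and eosinophil markers fell in 3 of 8 with 1 rise, and B cell markers in 2 of 5 with 1 rise. T and NK cell markers rose in 1 of 4 (25.0% called, near the share of all tested genes), and none of 8 erythroid and megakaryocyte markers was called. In bulk RNA, fewer cells of a type and less RNA per cell cannot be told apart.

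To tell these transcripts from macrophage genes, libraries outside the comparison were used. In the 20 treated libraries, each gene's deviation from its group mean was correlated with that of each score, the gene itself left out. A Pearson r of at least 0.7 with either score was called varying with the markers. This is a description without a test, in which libraries may share cultures or depth. The deviations of both scores had an r of 0.915 over these libraries, so stromal and neutrophil transcripts cannot be told apart from each other. By this measure 8.07% of tested genes varied with the markers, against 26.9% of called genes (736). The share was 71.8% of the falls of at least 2-fold and 2.53% of the rises of at least 2-fold. Only a positive r counted and both scores were lower in knockout, so falls are expected among genes varying with the markers. Genes that move against the scores are counted as varying with neither, so this class cannot tell whether its rises are free of culture composition. Of genes varying with neither score, 1222 were called higher and 780 lower in knockout.

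**Figure D2:**
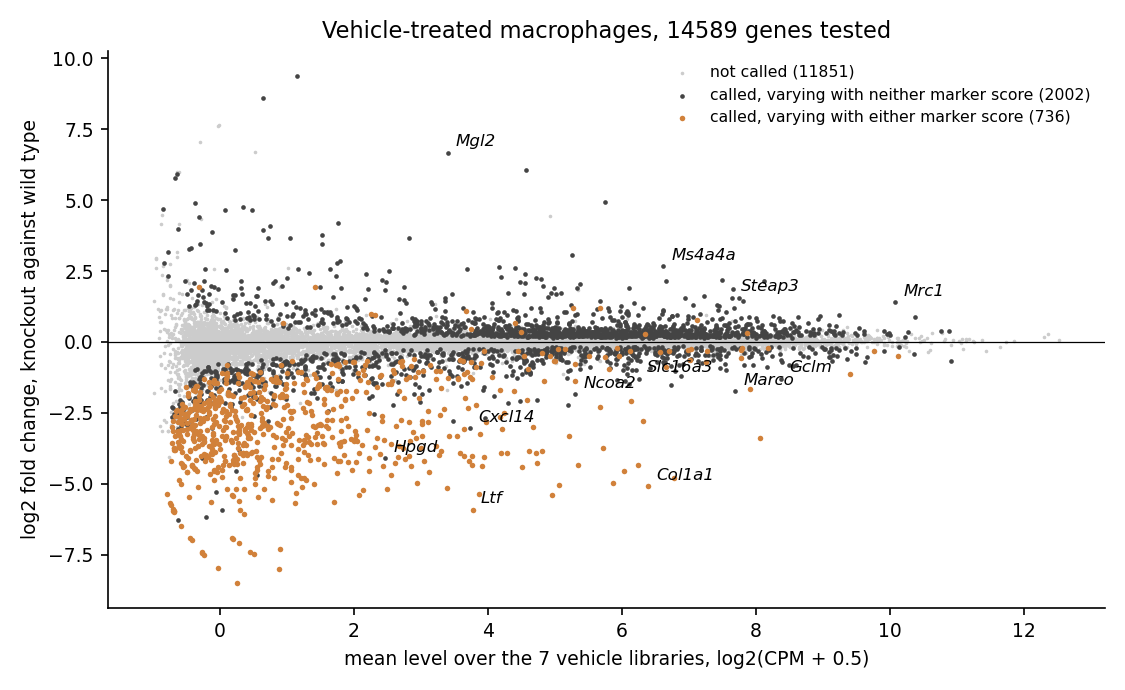
Difference between genotypes against level, for all 14589 tested genes. The x axis is the log2 mean level over the 7 vehicle libraries and the y axis the log2 fold change of knockout against wild type. Called genes that vary with either marker score (736 genes) lie almost all below 0, and those that vary with neither (2002 genes) lie on both sides.

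The largest falls among genes that vary with the markers were those of Ltf, Actg2 (−5.64), Vgll3 (−5.39), Tagln, Ngp and Ccn4 (−5.24). The cyclooxygenase Ptgs2 (−4.00), the growth factor Csf1 (−2.30), the fibronectin gene Fn1 (−2.77) and the chemokine Ccl22 (−2.31) also varied with them, and the call of Csf1 was lost without wild-type library 1. These genes are often read as macrophage products, and here their level moved with the markers in libraries that the comparison did not use. Those libraries may share cultures with the compared ones, so the covariation is not independent of the comparison. Rises among genes that vary with the markers were few, 14 in all. Fgr, a tyrosine kinase of myeloid cells, rose by 1.20 and the chemokine receptor Ccr1 by 1.19, a call lost without knockout libraries 2 and 3 (0.61, adjusted p = 0.115). With both scores as covariates beside the groups, 1516 genes were called, and 654 of the 2738 were among them with the same direction. The genotypes do not overlap in either score, so in that fit the effect of genotype and of the scores cannot be fully told apart.

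A set of genes that vary with neither marker score was lower in knockout with vehicle and after each treatment. Hpgd, the enzyme that inactivates prostaglandins (chromosome 8, 56294585 to 56321043), was at 8.64, 11.4 and 12.7 CPM in wild type and 0.813, 0.451, 0.459 and 0.841 CPM in knockout, a difference of −4.10 ± 0.29, adjusted p = 1.03e-09. The chemokine Cxcl14 was at 31.8, 21.7 and 23.9 CPM in wild type and 5.07, 2.05, 2.42 and 3.15 CPM in knockout (−3.03 ± 0.29, adjusted p = 1.36e-07). In both genes the highest knockout value was several-fold below the lowest wild-type value. Mns1, a protein of cilia and meiotic nuclei, was at 10.9, 14.4 and 14.8 CPM in wild type and 3.41, 2.87, 3.29 and 2.62 CPM in knockout (−2.13 ± 0.13), and the junction protein gene Cgnl1 at 35.3, 36.4 and 44.2 CPM in wild type and 12.9, 6.76, 7.60 and 9.66 CPM in knockout (−2.07 ± 0.19). Under IL4, corticosterone and dexamethasone the difference of Hpgd was −3.06, −3.86 and −3.46, and that of Cgnl1 −2.07, −1.93 and −1.75. The scavenger receptor Marco was at 328, 349 and 353 CPM in wild type and 163, 61.6, 63.1 and 127 CPM in knockout (−1.73 ± 0.31, adjusted p = 0.000449). Within the knockout group Marco was lowest in libraries 2 and 3, yet libraries 1 and 4 were also below wild type. Other falls of the same kind were those of Asb2 (−2.23), Morc4 (−1.97) and the complement subunit C1qa (−0.68). Dner (−1.92) and the haemoglobin receptor Cd163 (−2.12) fell with vehicle but were not called in every treatment.

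In the same way, some genes were higher in knockout in all 4 conditions. The examples here were chosen after their values were seen. Steap3, a reductase of endosomal iron (chromosome 1, 120190757 to 120272705), was at 88.7, 99.0 and 95.8 CPM in wild type and 293, 275, 280.4 and 270.2 CPM in knockout, a difference of 1.56 ± 0.07, adjusted p = 9.72e-14. Parvg, an adaptor of integrin signalling, was at 62.4, 53.5 and 59.2 CPM in wild type and 160.3, 171, 174 and 175 CPM in knockout (1.54 ± 0.07). The aspartic protease Napsa was at 15.5, 12.4 and 11.6 CPM in wild type and 37.6, 43.5, 42.5 and 50.0 CPM in knockout (1.72 ± 0.11). In these 3 genes the spread within a group was small and the groups were far apart. Cxcr4, the receptor of CXCL12, was at 101, 94.3 and 82.1 CPM in wild type and 223, 182, 213 and 297 CPM in knockout (1.31 ± 0.13, adjusted p = 1.32e-07). In all, 889 genes, 6.09% of those tested and 32.5% of those called with vehicle, were called in the same direction in all 4 conditions, 241 as rises and 648 as falls. Of the 889, 427 varied with neither marker score, and among these 240 rose and 187 fell. The treated libraries have their own wild-type groups, but the labels do not say whether they come from other cultures, and the wild-type libraries keep the same order by number in both marker scores in all 4 conditions.

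Genes of glutathione synthesis and peroxide removal were lower in the knockout cultures. Many are known targets of NRF2, a transcription factor that KEAP1 holds inactive until oxidants or electrophiles release it and that binds the antioxidant response element. The list of 32 such genes was drawn up after the values were seen, so its counts only describe the data. Of the 32, 24 fell and 1, the peroxidase Gpx1 (0.26), rose, with a median difference of −0.62 against 0.017 for all tested genes. The share called was 78.1%, beside 18.8% of all tested genes. The call of Gpx1 was lost without wild-type library 1 or 2, or knockout library 2.

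The antioxidant response element was looked for in the promoters of these genes as TGACNNNGC, on both strands, in the RefSeq windows of 300 bases that run from 250 before to 50 after a transcript start (GRCm38.p6). Of the 24 genes that fell 19 had a window and 9 of these held the motif, as did 1 of the 8 with a window among the others. Among all genes with RefSeq windows, 13.99% held it. The list was drawn up after the values were seen and many of its members are known NRF2 targets, so these shares are not a test. Whether NRF2 has a part in the falls was not tested. A match is a description of letters, not of binding, and in Prdx1 and Pir it overlaps the AP-1 site TGACTCA. The stretches around the match in 5 genes that fell are shown 5′ to 3′ on the strand of the gene, with the match in capitals. They lie at chr3:122245397-122245457 for Gclm, chr10:82859088-82859148 for Txnrd1, chr4:116685440-116685500 for Prdx1, chrX:164269191-164269251 for Pir and chr1:21240438-21240498 for Gsta3, all on the plus strand. The match reads TGACNNNGC on the gene's own strand in Gsta3 and on the opposite strand in the other 4.
Gclm: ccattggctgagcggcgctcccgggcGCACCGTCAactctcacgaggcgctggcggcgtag
Txnrd1: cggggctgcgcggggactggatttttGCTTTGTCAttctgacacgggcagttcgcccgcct
Prdx1: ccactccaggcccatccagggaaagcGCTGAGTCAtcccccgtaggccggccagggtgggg
Pir: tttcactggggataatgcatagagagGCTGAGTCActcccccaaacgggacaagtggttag
Gsta3: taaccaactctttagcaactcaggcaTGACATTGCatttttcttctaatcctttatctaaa

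Gclm, the modifier subunit of the enzyme that begins glutathione synthesis, was at 520.5, 471 and 512 CPM in wild type and 256, 184, 173 and 204 CPM in knockout (−1.30 ± 0.12, adjusted p = 8.76e-08). Its level in knockout was below that of every wild-type library by a wide margin, and lowest in libraries 2 and 3. Srxn1, which repairs overoxidized peroxiredoxins, was at 285, 249.7 and 247 CPM in wild type and 139.9, 139, 123 and 126 CPM in knockout (−0.98 ± 0.07, adjusted p = 1.03e-09). Txnrd1, the thioredoxin reductase of the cytosol, was at 539.9, 502 and 501 CPM in wild type and 314, 287, 286 and 283 CPM in knockout (−0.82 ± 0.07, adjusted p = 1.36e-08). The knockout libraries of both genes lay close together, with library 1 of Txnrd1 a little above the others. The quinone reductase gene Nqo1 was at 19.9, 19.4 and 33.0 CPM in wild type and 7.51, 8.56, 9.06 and 6.92 CPM in knockout (−1.58 ± 0.25, adjusted p = 8.95e-05), and the glutathione transferase gene Gsta3 at 48.6, 40.8 and 48.1 CPM in wild type and 17.1, 8.07, 8.60 and 11.3 CPM in knockout (−2.03 ± 0.27, adjusted p = 1.44e-05). Gsr, which regenerates reduced glutathione, differed by −1.20, the catalytic subunit gene Gclc by −0.56 and Prdx1 by −0.70. The glutathione transferase Gstp1 differed by −1.49 and Pir by −0.85. Slc7a11, the cystine carrier (−1.36), and the haem oxygenase Hmox1 (−1.15) fell too but varied with the marker scores. Under IL4, corticosterone and dexamethasone Gclm differed by −1.06, −0.93 and −1.01, and 19 of the 24 genes that fell did so in all 4 conditions. With the scores as covariates 16 of the 32 fell, and without knockout libraries 2 and 3 or without wild-type library 1, 21 fell. The regulators themselves moved less. Nfe2l2, which encodes NRF2, was at 0.14 (adjusted p = 0.39) and Keap1 at 0.06 (adjusted p = 0.701). Of 7 regulators tested, only the small Maf gene Maff fell (−1.24), and it varied with the marker scores and lost its call without wild-type library 1.

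**Figure D3:**
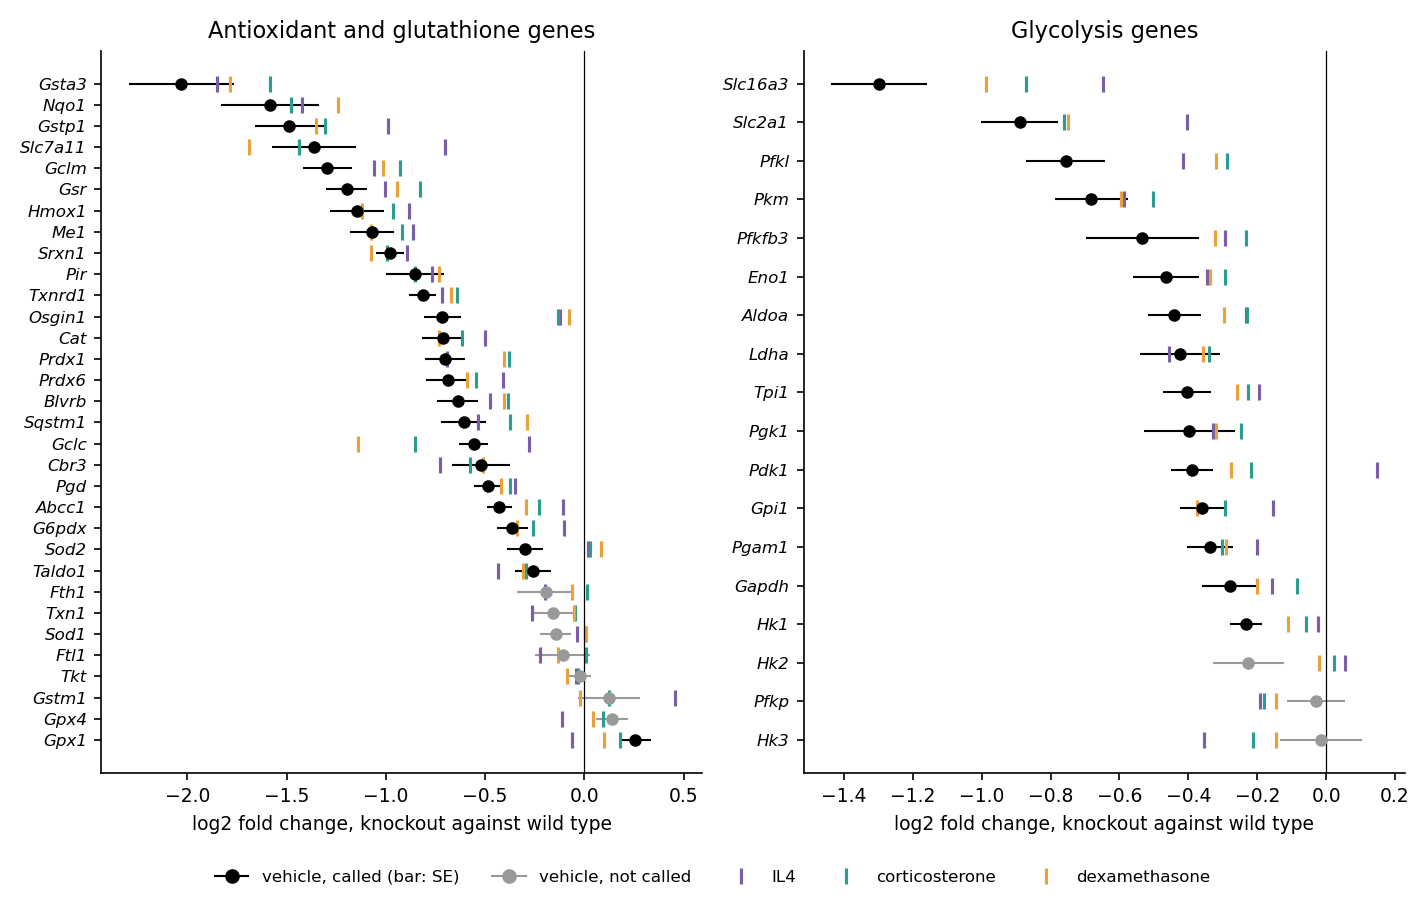
Differences between genotypes for 32 antioxidant and 18 glycolysis genes. Circles are the log2 fold change of knockout against wild type with vehicle, with bars of 1 SE, black where called, and ticks are the same difference under each treatment. With vehicle 24 antioxidant and 15 glycolysis genes lay below 0 and were called.

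Glycolysis genes were lower in the knockout cultures as a list, with 15 of 18 tested members falling and none rising. The share called was 83.3%, beside 18.8% of all tested genes, and the median difference was −0.40. The lactate exporter Slc16a3 (MCT4) was at 128, 101 and 115 CPM in wild type and 48.8, 44.4, 49.9 and 43.3 CPM in knockout (−1.30 ± 0.14, adjusted p = 6.79e-07). The glucose carrier Slc2a1 (GLUT1) was at 159, 128 and 124 CPM in wild type and 67.5, 84.6, 80.2 and 63.2 CPM in knockout (−0.89 ± 0.11, adjusted p = 5.52e-06). No knockout library reached a wild-type one in either gene. Pfkl, which makes the committed step, differed by −0.76 and the kinase gene Pdk1, which holds back pyruvate dehydrogenase, by −0.39. The hexokinase Hk3 was at −0.01 (adjusted p = 0.96). Egln3, a hydroxylase that marks HIF-1 for destruction and is itself induced in low oxygen, was at 10.2, 7.08 and 8.03 CPM in wild type and 1.90, 1.23, 1.38 and 1.25 CPM in knockout (−2.55 ± 0.29, adjusted p = 1.19e-06). Slc16a3 and Slc2a1 were among the 4 members called in all 4 conditions. Slc2a1 and Pfkfb3 varied with the marker scores. With the scores as covariates 3 of the 18 fell, and Slc2a1 was at −0.34 (adjusted p = 0.121). The part of stromal and neutrophil transcripts in these falls was not tested beyond this.

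Genes that IL4 induces were higher in knockout cultures that had received no IL4. Of 32 such genes 19 rose and 3 fell (68.8% called, beside 18.8% of all tested genes), with a median difference of 1.79. Mgl2, a lectin of alternatively activated macrophages (chromosome 11, 70130329 to 70137550), was at 0.0729, 0.245 and 0.171 CPM in wild type and 1.86, 36.5, 27.8 and 3.71 CPM in knockout (6.67 ± 1.49, adjusted p = 0.00294). Slc7a2, a carrier of arginine, was at 8.93, 7.23 and 5.47 CPM in wild type and 14.4, 114, 89.4 and 25.4 CPM in knockout (3.08 ± 0.79, adjusted p = 0.00789). In both genes all knockout libraries were above wild type, but libraries 2 and 3 stood far above libraries 1 and 4. Arg1, which splits arginine, was at 3.83, 1.38 and 1.88 CPM in wild type and 2.63, 117, 78.4 and 4.27 CPM in knockout, where libraries 1 and 4 overlapped wild type. Its difference was not called (4.45 ± 1.56, adjusted p = 0.0516), and DESeq2 gave an adjusted p of 0.00532. The secreted protein Retnla had 0 counts in wild type and in knockout libraries 1 and 4, with 6.06 CPM in knockout library 2 and 1.42 CPM in library 3, at least 49.2-fold higher over the group by a floor of 3 counts. Its call (adjusted p = 0.0272) was lost without knockout library 2 or any 1 wild-type library.

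The mannose receptor Mrc1, an abundant gene, was at 507, 586 and 589 CPM in wild type and 1058, 1933, 1655 and 1247 CPM in knockout (1.39 ± 0.20, adjusted p = 4.06e-05). The integrin Itgax (CD11c) was at 41.7, 40.7 and 20.4 CPM in wild type and 71.3, 224, 184 and 126 CPM in knockout (2.14 ± 0.38). All knockout libraries were above wild type in both, with the same order among them. In 18 of the 19 genes that rose the 2 highest knockout libraries were 2 and 3. The groups did not overlap in 14 of the 19, beside 90.9% of all called genes and 25.9% of all tested genes. Among all rises of at least 2-fold, libraries 2 and 3 were the 2 highest in 53.0% (105 of 198), against 24.8% of all tested genes. Without these libraries 4 of the 32 rose, and the differences of Mgl2 (4.05, adjusted p = 0.125) and Slc7a2 (1.47, adjusted p = 0.258) were not called. Flt1 (2.59), Cdh1 (2.50), Ablim1 (3.65) and Lipn (2.22) had the same pattern and lost their calls without them. The kinase Matk differed by 2.07. The factor genes of coagulation F7 (2.65) and F10 (2.29) rose as well, as did B3gnt7 (2.38) and Klhl33 (2.18), whose calls were also lost without libraries 2 and 3.

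**Figure D4:**
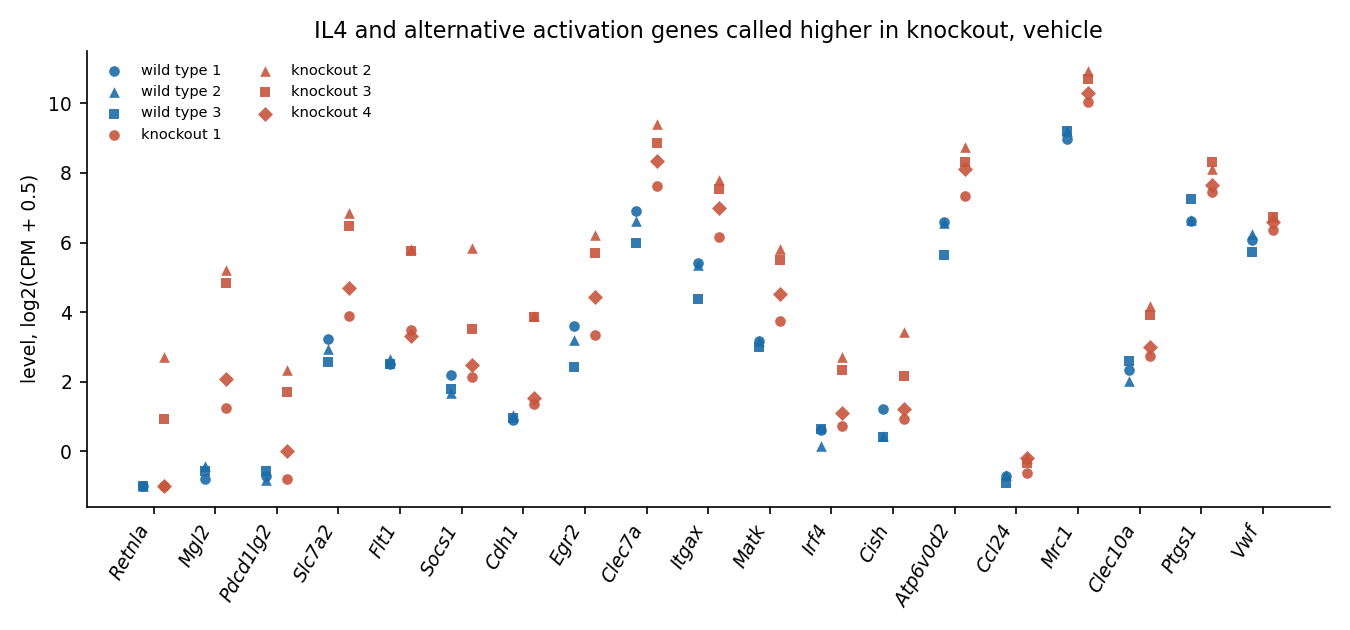
Levels of the 19 IL4-responsive genes called higher in knockout, in each vehicle library. The y axis is log2(CPM + 0.5), blue marks are wild-type and red marks knockout libraries, and the shape gives the replicate number. Knockout libraries 2 (triangles) and 3 (squares) are the highest in all but 1 of the genes.

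Klf4, a transcription factor induced by IL4 with which GRIP1 acts, was at 16.2, 15.4 and 13.9 CPM in wild type and 16.8, 49.1, 35.9 and 14.5 CPM in knockout (0.94 ± 0.30, adjusted p = 0.0316). Libraries 1 and 4 were within or near the wild-type range, and the call was lost when any 1 of the wild-type libraries or knockout library 2 or 3 was left out. Klf2 was at −0.90 ± 0.28 (adjusted p = 0.0286), a call lost without wild-type library 2 or 3 or knockout library 3 or 4, and the other 9 tested Kruppel-like factors were not called. The share called in this family, 18.2%, is near the 18.8% of all tested genes. Of the list's 3 falls, Fn1 and Ccl22 varied with the marker scores, and the receptor chain Il4ra was at −0.31, a call lost without wild-type library 1 or 3. Chil3, which both IL4-treated macrophages and neutrophil precursors make, was at 94.9, 33.5 and 21.1 CPM in wild type and 4.61, 51.8, 27.9 and 7.23 CPM in knockout and was not called. With IL4 itself, none of the 32 genes was called higher in knockout, and the difference of Mgl2 was −0.08 and that of Mrc1 0.24. None rose and 3 fell under corticosterone, and 1 rose and 2 fell under dexamethasone.

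Genes of antigen presentation by MHC class II rose in knockout in 8 of 11 tested members and fell in none (median 0.72). The share called was 72.7%, beside 18.8% of all tested genes. Ciita, the master activator of these genes, was at 0.547, 0.521 and 0.991 CPM in wild type and 2.83, 3.77, 4.85 and 4.80 CPM in knockout (2.57 ± 0.32, adjusted p = 5.72e-06). H2-Eb1, a class II chain, was at 19.7, 12.3 and 11.5 CPM in wild type and 32.1, 59.8, 48.7 and 50.8 CPM in knockout (1.73 ± 0.27, adjusted p = 0.000131). The groups were apart in both, and for H2-Eb1 library 1 was the lowest of the knockout. H2-Ab1 differed by 1.46 and H2-DMa by 1.20. The difference of Ciita was 2.57 under corticosterone and 2.62 under dexamethasone, and 0.42 under IL4. Over the list, 0, 2 and 3 of the 11 genes rose under IL4, corticosterone and dexamethasone, and none was called in all 4 conditions. Without knockout libraries 2 and 3, 6 of the 11 rose. Class II genes are near-identical in part, so reads could be split between them.

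The glucocorticoid receptor's target genes moved both ways without added glucocorticoid, with 6 of 25 rising and 8 falling (56.0% called). Ms4a4a, a membrane protein (chromosome 19, 11375523 to 11392790), had one of the largest rises, at 26.1, 21.3 and 23.8 CPM in wild type and 75.0, 226, 177 and 132 CPM in knockout (2.69 ± 0.23, adjusted p = 3.88e-08). Tsc22d3, the gene of the leucine zipper protein GILZ, was at 65.2, 57.1 and 70.2 CPM in wild type and 94.9, 130.1, 116 and 119 CPM in knockout (0.84 ± 0.11, adjusted p = 1.62e-05). Both were above wild type in each knockout library. Tns1 rose by 0.87 and was called in all 4 conditions, as was Tsc22d3. The chaperone gene Fkbp5, a standard readout of the receptor, was at 0.05 (adjusted p = 0.794). The formyl peptide receptor Fpr1 was at 75.3, 56.9 and 65.4 CPM in wild type and 22.5, 4.14, 6.85 and 22.7 CPM in knockout (−2.24 ± 0.43, adjusted p = 0.000873), lowest in knockout libraries 2 and 3. Fpr1 is also on the list of mature neutrophil markers, most of which fell. Lcn2, at −4.57, is also a neutrophil granule gene and varied with the markers. Dusp1, a phosphatase of MAP kinases, differed by −0.91, a call lost without wild-type library 2 or knockout library 3. Without knockout libraries 2 and 3, 6 targets rose and 3 fell.

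Inflammatory genes were lower as a list, with 12 of 27 falling and 3 rising (median −0.47). The share called was 55.6%, beside 18.8% of all tested genes. Nfkbia, the inhibitor of NF-kappaB that NF-kappaB itself induces, differed by −0.46 ± 0.10, adjusted p = 0.00154, a call lost without knockout libraries 2 and 3 (−0.28, adjusted p = 0.0698). The chemokine Cxcl3 differed by −2.02 (−0.20 with the covariates, adjusted p = 0.838) and Acod1, which makes itaconate, by −1.72, the latter varying with the neutrophil score. Of the 27 members 8 varied with either score. Without knockout libraries 2 and 3, 4 fell, and with the scores as covariates, 1. Of 31 chemokines and receptors 9 fell and 4 rose (41.9% called), and 2 fell with the covariates. Immediate early genes fell in 6 of 18 and rose in 2 (44.4% called). Egr1 was at −2.77 ± 0.87 (adjusted p = 0.0292), a call lost without knockout library 2 or 3 and without wild-type library 2 (−1.41, adjusted p = 0.353). Fosl1 (−3.35) varied with the markers.

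Genes of macrophage identity moved both ways, 6 of 30 rising and 5 falling (36.7% called, beside 18.8% of all tested genes), with a median of 0.022. The low-affinity IgG receptor Fcgr3 rose by 0.51 and the factor Tfec by 0.79, while the high-affinity receptor Fcgr1 was at −0.65, a call lost without knockout libraries 2 and 3 (−0.45, adjusted p = 0.0812). The inhibitory receptor Fcgr2b was at 79.5, 56.7 and 42.4 CPM in wild type and 133, 413, 315 and 228 CPM in knockout (2.19 ± 0.48, adjusted p = 0.0024), a call lost without knockout libraries 2 and 3 (1.60, adjusted p = 0.0533). Of 27 genes of efferocytosis and scavenging 4 rose and 5 fell (33.3% called). Integrin beta 3, encoded by Itgb3, was at 27.4, 31.4 and 20.4 CPM in wild type and 57.4, 137, 118 and 85.7 CPM in knockout (1.92 ± 0.40, adjusted p = 0.00168), and with the proton pump subunit Atp6v0d2 (1.88) and Cd9 it made up the 3 rises among 11 genes of cell fusion and osteoclasts. Among these 11 genes 45.5% were called. Lysosomal enzymes and the proton pump rose in 9 of 35 members and fell in 1 (28.6% called). The amounts were small, such as 0.38 for Hexa and 0.57 for Atp6v0a1, the latter not called without knockout libraries 2 and 3 (0.26, adjusted p = 0.151). The count of rises was 5 with RLE scaling or without wild-type library 1.

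Fatty acid oxidation and storage genes rose in 12 of 25 and fell in 3 (median 0.22). Acadl, a dehydrogenase of long-chain fatty acids, rose by 0.30, and the largest fall was that of Pdk4 (−4.12), which varied with the markers. The count of rises was 8 without wild-type library 1, 3 without knockout libraries 2 and 3 and 2 with the covariates. Cholesterol synthesis genes rose in 4 of 24, and the 16.7% called are near the 18.8% of all tested genes. Among LXR targets 3 of 15 rose and 2 fell (33.3% called), with the receptor gene Nr1h3 at 0.49. The desaturase Scd1, which varied with the markers, was at −1.63 (−0.11 with the covariates, adjusted p = 0.82). Among the remaining lists there were 3 rises among 39 interferon-stimulated genes, 1 fall among 40 cell cycle genes (Mcm6, −0.50; 25 falls with the covariates), 2 rises (Nfil3 and Bhlhe40, both lost without knockout libraries 2 and 3) and 1 fall among 17 clock genes, 1 rise and 3 falls among 20 genes of the integrated stress response, and 1 rise and 3 falls among 22 nuclear receptors. The last 3 lists are near the share of all tested genes, with 17.6%, 20.0% and 18.2% called. The first 2 are below that share, with 7.7% and 2.5% called. The interferon-stimulated Ly6e was an exception in size, at 83.3, 79.1 and 128 CPM in wild type and 203, 247, 212 and 269 CPM in knockout (1.27 ± 0.16, adjusted p = 7.52e-06).

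Toll-like receptors and their adaptors rose in 5 of 19 and fell in 3 (42.1% called), and the largest rises were those of 2 neighbouring genes. Tlr7, the endosomal receptor for single-stranded RNA, was at 109, 125 and 119 CPM in wild type and 262, 243, 265 and 309 CPM in knockout (1.20 ± 0.13, adjusted p = 6.93e-07), and Tlr8 at 77.4, 119.8 and 111 CPM in wild type and 243, 310.3, 334 and 315 CPM in knockout (1.55 ± 0.19, adjusted p = 6.12e-06). Each knockout library was well above the highest wild-type library. Both genes lie near the end of the X chromosome, and a scan of 14396 windows of 10 neighbouring tested genes, made after the values were seen, found the most genes called higher in all 4 conditions, 6, there. The block was cut from the first to the last gene called higher there and runs from 167088093 to 169370003 on chromosome X. It holds 10 tested genes, of which 8 were higher in knockout, with a median difference of 1.07, or 2.10-fold. Under IL4, corticosterone and dexamethasone the medians were 1.22, 0.87 and 0.91.

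Msl3, a subunit of a chromatin complex, was at 56.0, 61.8 and 58.4 CPM in wild type and 116, 127, 138 and 125 CPM in knockout (1.11 ± 0.07, adjusted p = 1.57e-10), and Prps2, which makes the sugar precursor of nucleotides, differed by 1.09. Arhgap6 was at 7.04, 8.46 and 7.14 CPM in wild type and 22.0, 42.4, 37.3 and 28.7 CPM in knockout (2.11 ± 0.28, adjusted p = 1.52e-05) and Hccs, which attaches haem to cytochrome c, differed by 0.88. Each knockout library was above each wild-type library in all of these. The abundant Tmsb4x, within the block, was at 1626, 1454 and 1588 CPM in wild type and 2059, 2256, 1419 and 1941 CPM in knockout and was not called (adjusted p = 0.0974), but it was called higher under IL4, corticosterone and dexamethasone (0.52, 0.58 and 0.53). By the way the block was cut, the nearest genes on either side could not be called higher. They were at −0.08 for Tceanc and 0.02 for Rab9 on one side and 0.07 for Mid1 on the other, without a call. Further out Gpm6b, which varied with the markers, was lower (−1.38). On the Y chromosome the copy Mid1-ps1 had 0.0729, 0.245 and 0.137 CPM in wild type and 0.542, 0.860, 1.66 and 0.467 CPM in knockout (2.52, adjusted p = 0.00364), a call lost without knockout libraries 2 and 3. Gene copy number was not measured. Irak1, on another part of the X chromosome, rose by 0.32, and Irak3, an inhibitor of this pathway, was at −0.98.

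**Figure D5:**
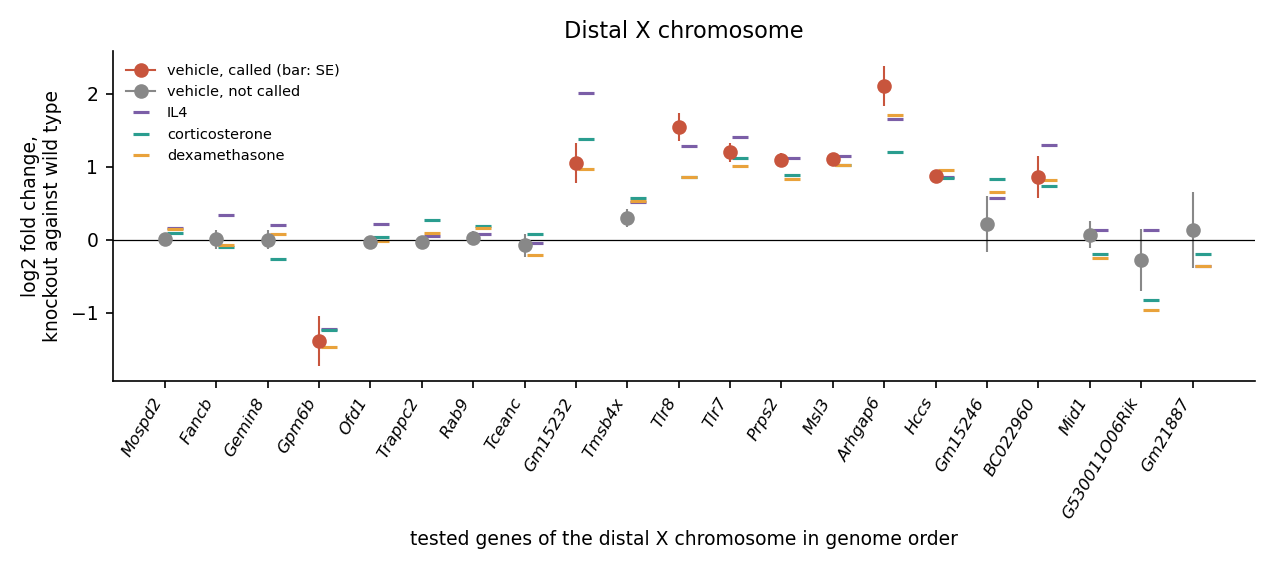
Differences between genotypes for tested genes at the end of the X chromosome, in genome order. Circles are the log2 fold change of knockout against wild type with vehicle, with bars of 1 SE, red where called, and coloured dashes are the same difference under each treatment. From Gm15232 to BC022960, 8 of 10 genes were called higher, and Tceanc and Mid1, the genes next to the block, lay near 0. The block was cut at the first and last gene called higher.

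Genes near the loci changed by breeding were examined separately, since flanking sequence of another strain can come with a modified allele. Within 5 Mb of Ncoa2, 28 genes were tested and 8 were called, Ncoa2 among them, 1 higher and 7 lower. Eya1, a phosphatase and transcriptional coactivator, was at 16.1, 22.3 and 20.0 CPM in wild type and 5.77, 8.81, 7.11 and 6.82 CPM in knockout (−1.45 ± 0.15, adjusted p = 2.37e-07), apart from wild type in each library. Snhg6 (−1.03) and the sulfatase Sulf1 (−3.35) also fell but varied with the markers, and Sgk3 was at 0.31. The calls of Sulf1 and Sgk3 were lost without wild-type library 1. Within 5 Mb of Lyz2, 8 of 42 tested genes were called, 1 higher and 7 lower. These are 28.6% and 19.0% of the tested neighbours, beside 18.8% of all tested genes. The strain of the flanking sequence was not measured.

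The difference with vehicle was then set against its mean under the 3 treatments. It differed for 16 genes, 0.11% of those tested, and for 1160 at an unadjusted p under 0.05. Ms4a4a had the smallest adjusted p, 2.69 with vehicle against 0.71, 0.58 and 0.51 under IL4, corticosterone and dexamethasone (difference 2.08 ± 0.25, adjusted p = 0.000448). Map2, a protein of microtubules, went from 2.80 with vehicle to 0.20, 0.16 and 0.92. Pilra, an inhibitory receptor whose reads may be shared with related genes, was lower in knockout with vehicle (−0.80) and at 0.77, 0.90 and 0.50 under the treatments. Its call with vehicle was lost without wild-type library 1 or 3 or knockout library 2 or 3. For the IL4-responsive genes the gap did not pass, as for Mrc1 (adjusted p = 0.0733) and Mgl2 (adjusted p = 0.568). Without knockout library 1 the number of genes that differed was 156, and without wild-type library 3 it was 4.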

How the data were processed

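RNA sequencing libraries of macrophage cultures were counted per gene by the authors, and the deposited values are raw counts. The submitters' processing notes name fastp 0.23.2, STAR 2.7.0, featureCounts, edgeR 3.38.4 and the build mm10, while the sources used here do not give the strand setting. Here, genes were kept by filterByExpr (minimum count 10) and all 27 libraries were fitted with 8 group means in edgeR 4.0.16 (quasi-likelihood, TMM scaling, R 4.3.3), with Benjamini-Hochberg adjustment over all 14589 genes and a call at an adjusted p under 0.05. DESeq2 1.42.0 was an alternative. CPM values use TMM-scaled library sizes. The fit was tested on simulated data.

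Gene lists, members and rules were chosen with earlier results of these data known. Genes named were, with at least 5 CPM and no overlap, the 12 largest rises and falls varying with neither marker score and the 6 varying with either. Up to 4 members per list with the smallest adjusted p, a fixed set (Ncoa2, Klf4, Arg1 and others), called genes within 5 Mb of Ncoa2 or Lyz2 and the 5 largest differences between vehicle and treatments were added, and 1 of these 5 is not reported here. Other genes named, among them Steap3, Parvg, Napsa, the X chromosome block and the antioxidant list, were chosen after their values were seen. Gene positions are from GENCODE vM21 (GRCm38).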

Additional observations from a re-analysis of the deposited data

Results flagged for a closer look

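Txnrd1, at 313.5 CPM in knockout library 1 with vehicle, lay further from the other 3 knockout libraries than their own spread allows by Dixon's criterion. Chance flags about 1 in 20 groups, and 47 were checked.

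The difference between genotypes with vehicle departed from its mean under the treatments in the 4 genes given here, each by the test of that difference in edgeR. The gap was 2.37 for Map2 and 2.08 for Ms4a4a, which were relatively higher in knockout with vehicle. It was −1.52 for Pilra and −1.29 for 2310043P16Rik, which were relatively lower with vehicle.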

How the results depend on the processing

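Of 140 genes followed, 122 were called, and 71 of these kept call and direction under every alternative run. None lost its call with RLE scaling, 17 did without some 1 library, 29 without knockout libraries 2 and 3, and 36 with the marker scores as covariates. The number of genes called with vehicle, 2738, was 1641 in a fit of only the 7 vehicle libraries, 1521 without knockout libraries 2 and 3 and 1516 with the covariates (51.2% of them higher, against 45.1%), and 1809 to 2773 when 1 library was left out. The 889 genes called in all 4 conditions became 335 with the covariates and 735 to 857 without 1 library. The 16 genes that differed between vehicle and treatments became 26 without a filter on low counts, 5 without knockout libraries 2 and 3, 113 with the covariates and 4 to 156 without 1 library. With the replicate number as a block the counts were 3109, 1073 and 87. The numbers do not pair the genotypes, since deviations of same-numbered libraries had an r of −0.11, −0.268 and 0.003. Among genes called in at least 1 of the fits, directions turned with the covariates in Col3a1 (0.20), Csf1 (1.44), Mpo (3.15), Maff (0.72), Ptgs2 (0.23), Sulf1 (0.94) and Sgk3 (−0.057), where the cause was not tested. Genes called in neither fit, such as Chil3 (1.72), changed sign too, and Csf1r and Nr3c1 gained a call. Without knockout libraries 2 and 3 Retnla was at 0, since the libraries that remain hold no count of it. An r of at least 0.5 in place of 0.7 gave 946 called genes varying with the markers in place of 736. Genes with few counts, such as Elane, could not be tested at this depth.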
